A study of Mus musculus with 3 samples.

Results

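Ifit1, Ifit2, Ifit3, Isg15, Irf7, Irf9, Stat2, Bst2 and Rsad2 are 9 genes of the interferon response, and their signals were followed across 3 fractions of mouse olfactory epithelium cells. They are a list of known interferon response genes, chosen by name and on the measured signal of Ifit1, which was highest in the weakly fluorescent fraction, and the question was whether the other genes shared that peak. The array carries 11 probe sets of their own for 8 of the 9 genes, among 18193 genes in all, and Isg15 has only a probe set that it shares with another gene, Gm9706. The cells came from Tgn1-2G transgenic mice of both sexes at postnatal days 5 to 8, in which, as background, GFP is driven by regulatory sequence of the proneural factor Neurog1. All 3 fractions carried the transgene and were sorted by brightness: 1000000 strongly fluorescent cells (GFP+++), 1300000 weakly fluorescent cells (GFP+) and 6800000 cells without fluorescence (GFP-). By the submitters' account GFP+++ was rich in immature neurons, GFP+ slightly rich in mature neurons, and GFP- held every cell type with fewer immature neurons. A number of 32, taken to be pooled mice, stands in the labels of every fraction, and it is not stated if the same mice gave all 3.

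Interferons are secreted proteins that warn cells of viral infection. Type I interferons bind the receptor chains Ifnar1 and Ifnar2, whose kinases Jak1 and Tyk2 phosphorylate Stat2. With Irf9, Stat2 is part of a complex that binds the interferon-stimulated response element (ISRE) in promoters, while type II interferon is known to act through the gamma-activated site (GAS). Many target genes have a low level without infection, and macrophages and other immune cells are known to express several of them at rest. In the nasal lining, olfactory neurons reach the air directly and are a known entry point for viruses.

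The promoters of the members are shown because the ISRE is the best known element that these genes have in common, and Ifit1, Ifit2, Ifit3 and Rsad2 are printed because the results turn on how they differ. The sequences are the 250 bases before the annotated start from RefSeq (mouse build GRCm38.p6), 5′ to 3′ on the strand of the gene, and capitals mark ISRE matches. The Ifit1 window is chr19:34640639-34640888 on the plus strand, the Ifit2 window of the first of its annotated starts chr19:34550444-34550693 (plus), the Ifit3 window chr19:34583279-34583528 (plus) and the Rsad2 window chr12:26456453-26456702 (minus).
Ifit1: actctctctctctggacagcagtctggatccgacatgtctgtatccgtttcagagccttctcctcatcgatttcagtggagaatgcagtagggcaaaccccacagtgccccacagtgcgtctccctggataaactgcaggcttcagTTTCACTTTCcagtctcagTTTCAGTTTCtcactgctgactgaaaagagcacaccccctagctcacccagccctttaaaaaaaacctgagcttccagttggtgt
Ifit2: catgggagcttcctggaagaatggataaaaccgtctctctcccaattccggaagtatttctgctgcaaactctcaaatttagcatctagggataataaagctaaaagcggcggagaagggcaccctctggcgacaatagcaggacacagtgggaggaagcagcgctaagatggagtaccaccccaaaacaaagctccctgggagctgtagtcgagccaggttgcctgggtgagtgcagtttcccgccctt
Ifit3: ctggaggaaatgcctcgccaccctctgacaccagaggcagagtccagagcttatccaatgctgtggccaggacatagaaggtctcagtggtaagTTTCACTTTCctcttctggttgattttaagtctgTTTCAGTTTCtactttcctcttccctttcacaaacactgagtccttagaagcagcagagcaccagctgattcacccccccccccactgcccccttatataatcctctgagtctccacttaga
Rsad2: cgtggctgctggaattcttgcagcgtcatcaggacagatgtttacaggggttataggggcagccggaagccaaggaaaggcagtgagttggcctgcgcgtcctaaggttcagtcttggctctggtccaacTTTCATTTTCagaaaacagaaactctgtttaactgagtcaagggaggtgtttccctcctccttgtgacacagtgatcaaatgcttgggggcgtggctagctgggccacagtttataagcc

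The ISRE was searched as the letters GAAA, any 2 bases and GAAA again, and the GAS as TTC, any 3 bases and GAA, both on either strand, in windows that run on for the first 50 bases of the transcript. All 9 members had an entry in the promoter table. An ISRE match lay in the window of 6 of them (Ifit1, Ifit3, Isg15, Rsad2, Bst2 and Stat2), against 3.99% of 27025 genes with a window of that length. Ifit1 and Ifit3 each held a pair of matches, which began 104 and 85 bases before the start in Ifit1 and 156 and 122 in Ifit3. The letters were the same in both genes, TTTCACTTTC and then TTTCAGTTTC, which are ISRE letters read on the other strand. Isg15 held 3 overlapping matches from 78 bases before its start, and Bst2 held 2 overlapping ones from 130 bases, the first of which also overlaps a GAS match. Neither window of Ifit2 held the ISRE letters. A GAS match stood 241 bases before its first start, and 2 of the 9 members had one, against 9.55% of genes. A match of letters is a description of the window and not a measured binding site, and the promoters of Ifit1 and Ifit3 look alike by this measure although their signals, given below, differed in order.

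**Figure D1:**
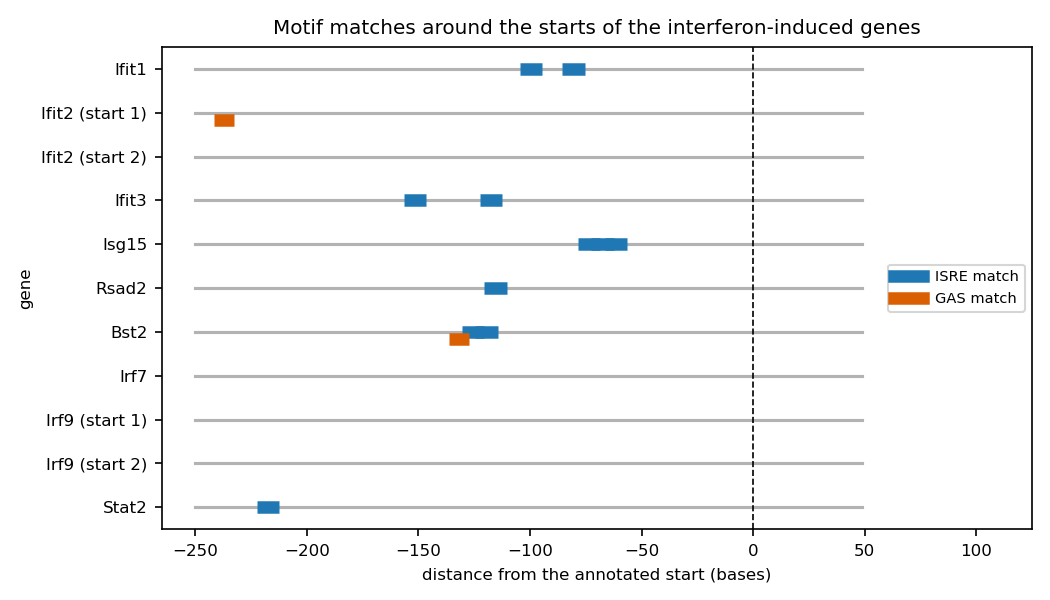
Motif matches in the windows of the 9 members (rows; Ifit2 and Irf9 have 2 annotated starts). The x axis is the distance from the annotated start in bases, the grey line is the window searched, blue blocks are ISRE matches and orange blocks GAS matches. Ifit1 and Ifit3 hold a pair of ISRE matches each, and no ISRE match is drawn for Ifit2, Irf7 or Irf9.

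Each fraction was measured on 1 array, so no value has a replicate error, no test is possible and every difference has no replicate check. Values are MAS5 signals, a linear intensity per probe set. A signal under 104, the median of all probe sets on all arrays, was taken as too dim to measure and raised to that floor, and a fold against such a signal is given as at least that size. The spread between probe sets of the same gene gives only a part of the measurement error. They share an array and an RNA sample, so error common to them is left out, and a gap above this spread is not thereby settled. The SD of their log2 folds was 0.24 between GFP+ and GFP- (4979 genes). It was 0.30 for GFP+++ against GFP- (4633 genes) and against GFP+ (4640 genes). For dim genes, with a mean signal of 1 to 4 times the floor, it was 0.27, 0.35 and 0.34. Where a gene has more than 1 probe set, the one with the highest mean signal stands for it. In sorted bulk RNA, fewer cells of a type and less RNA per cell cannot be told apart.

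The 3 Ifit genes encode tetratricopeptide repeat proteins that bind foreign RNA or translation factors. Ifit1, whose product binds viral RNA with an unusual cap, gave signals of 252, 1102 and 463 in GFP+++, GFP+ and GFP-. GFP+ stood 2.38-fold above GFP- and 4.37-fold above GFP+++. This is the pattern for which the gene was chosen, and it is given as a description. Ifit2, which also binds RNA, gave 267, 613 and 336 in GFP+++, GFP+ and GFP-, so it too was highest in GFP+. GFP+ was 1.82-fold above GFP- and 2.30-fold above GFP+++, a gap to GFP- of 0.87 on the log2 scale against a probe set SD of 0.24. Ifit3, the third gene of the family among the members, gave 35.7, 121 and 150 in GFP+++, GFP+ and GFP-. Its highest signal was in GFP-, by 0.32 on the log2 scale over GFP+, a gap just above the SD of 0.24 and close to the 0.27 of dim genes. GFP+++ lay under the floor, which makes it at least 1.44-fold below GFP-.

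The Ifit genes are neighbours on chromosome 19, where RefSeq places Ifit3, Ifit1bl1, Ifit3b and Ifit1bl2 between Ifit2 and Ifit1. Ifit1bl1 and Ifit1bl2, relatives of Ifit1 in that cluster, lay under the floor on all 3 arrays, and Ifit3b had no probe set of its own. Of the protein-coding genes that flank the cluster, Lipa, a lysosomal lipase next to Ifit2, was nearly level at 629, 659 and 682 in GFP+++, GFP+ and GFP-, and Slc16a12, next to Ifit1, lay under the floor throughout. The highest signal in GFP+ was thus measured for the genes at both ends of the cluster and not for Ifit3 between them.

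**Figure D2:**
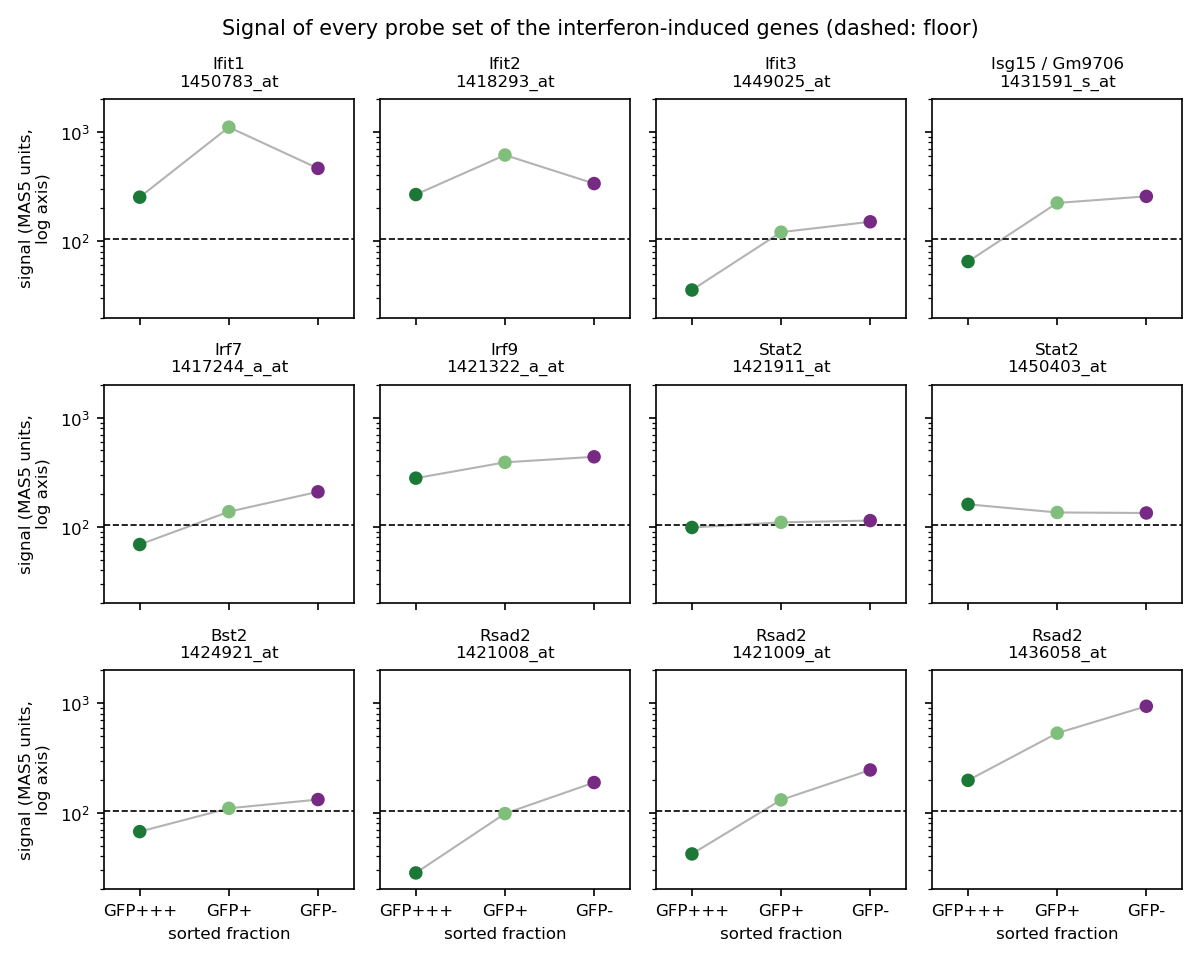
Signal (MAS5 units, log axis) of the 12 probe sets of the 9 members in GFP+++, GFP+ and GFP-, 1 point per array, with the floor of 104 as a dashed line. Ifit1 and Ifit2 peak in GFP+ at 1102 and 613, the 3 Rsad2 probe sets climb from GFP+++ to GFP-, and the 2 Stat2 probe sets are nearly flat.

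Of the effector genes outside the Ifit family, Rsad2 was highest in GFP- by more than the probe set SD. Rsad2, which encodes viperin, an enzyme that makes a chain-terminating nucleotide, gave 198, 534 and 942 in GFP+++, GFP+ and GFP- on its brightest probe set. GFP- was 1.76-fold above GFP+ and 4.76-fold above GFP+++. Its other 2 probe sets kept the order, with 28.1, 98.1 and 189 on the first and 41.9, 131 and 246 on the second. On those dimmer probe sets GFP+++ lay under the floor, and GFP- was at least 1.81-fold and at least 2.36-fold above it. Between GFP+ and GFP- the order was opposite to that of Ifit1, with log2 folds of -0.82 on the brightest probe set and -0.91 on the second of the dimmer ones. On the first of these GFP+ too lay under the floor, and GFP- was at least 1.81-fold above it.

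Bst2 encodes tetherin, which holds budding virus particles at the cell surface. It gave 67.1, 110 and 132 in GFP+++, GFP+ and GFP-, all near the floor. The gap between GFP+ and GFP- was 0.27 on the log2 scale, no larger than the probe set SD of dim genes, so the order of these 2 arrays is not settled. The probe set shared by Isg15, a ubiquitin-like modifier, and Gm9706 gave 64.97, 223 and 257 in GFP+++, GFP+ and GFP-. These values cannot be assigned to Isg15 alone, and the probe set enters no count below. It was highest in GFP-, at least 2.46-fold above GFP+++, but only 1.15-fold above GFP+.

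The members include 3 transcription factors of the response. Irf7, the factor that drives type I interferon genes and is itself induced, gave 69.0, 138 and 209 in GFP+++, GFP+ and GFP-. GFP- was 1.52-fold above GFP+ and at least 2.01-fold above GFP+++. Irf9, the DNA-binding part of the ISRE complex, gave 279, 390 and 438 in GFP+++, GFP+ and GFP-. It had the same order, but GFP- was only 1.12-fold above GFP+, within 1 probe set SD (a log2 fold of -0.17), and 1.57-fold above GFP+++. Stat2, its partner, gave 161, 136 and 134 in GFP+++, GFP+ and GFP- on the brighter probe set and 98.8, 110 and 114 on the dimmer one. The probe sets ran in opposite orders with gaps within 1 SD, so no direction is given for Stat2.

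Over the 8 members with a probe set of their own, GFP+ against GFP- placed 1, Ifit1, at least 2-fold higher, where 0.607% of 12196 genes were, and 0 at least 2-fold lower, where 0.804% were. Ifit1 was chosen for this pattern, so nothing is read from that count, and of the 7 without it 0 passed 2-fold in either direction. GFP+++ against GFP- placed 0 at least 2-fold higher (1.92% of 12235 genes) and 2, Rsad2 and Irf7, at least 2-fold lower (12.4%). Irf7 passed narrowly, and with each array scaled by its median, with quantile normalization or with a floor at the 65th percentile of signals only Rsad2 remained. GFP+++ against GFP+ placed 0 at least 2-fold higher (0.985% of 11881 genes) and 3 at least 2-fold lower (9.34%), namely Ifit1, again by choice, Ifit2 and Rsad2. The log2 fold of Ifit2 in this comparison was -0.92 under median scaling, short of 2-fold. That of Rsad2 was -0.95 with the 65th percentile floor and -0.33 with the median over its probe sets. Both Rsad2 values are set by the floor, under which GFP+++ lay. Without a floor its 3 probe sets were 2.70-fold, 3.12-fold and 3.49-fold lower in GFP+++ than in GFP+. The median log2 fold of the 8 was -0.22 for GFP+ against GFP-, -0.59 for GFP+++ against GFP- and -0.44 for GFP+++ against GFP+, where those of all genes were -0.01, 0.01 and -0.02. Without Ifit1 the medians of the 7 were -0.27, -0.53 and -0.40. These comparisons share arrays and are not independent of each other.

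The GFP+ peak was counted where GFP+ passed the floor and stood at least 1.5-fold above the higher of the other arrays. Among all 12331 genes above the floor on any array 231 met this, or 1.87%. Ifit2 met it, as did Ifit1 by choice. None of the other 6 members did, and by plain order 5 of them were highest in GFP- and Stat2 in GFP+++. Among all genes 24.8% were highest in GFP+ and 36.1% in GFP-. The highest array of each of the 8 members was the same under the 3 scalings. It was read from signals before the floor, so a change of floor could not alter it. With the 65th percentile floor only 4 of the 8 members had a value. Of the 6 members besides Ifit1 and Ifit2, 2 differed by less than the probe set SD of 0.24 between GFP+ and GFP-: Irf9 and Stat2. The gap of Bst2 was no larger than the SD of dim genes, 0.27, so its order is not settled either.

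**Figure D3:**
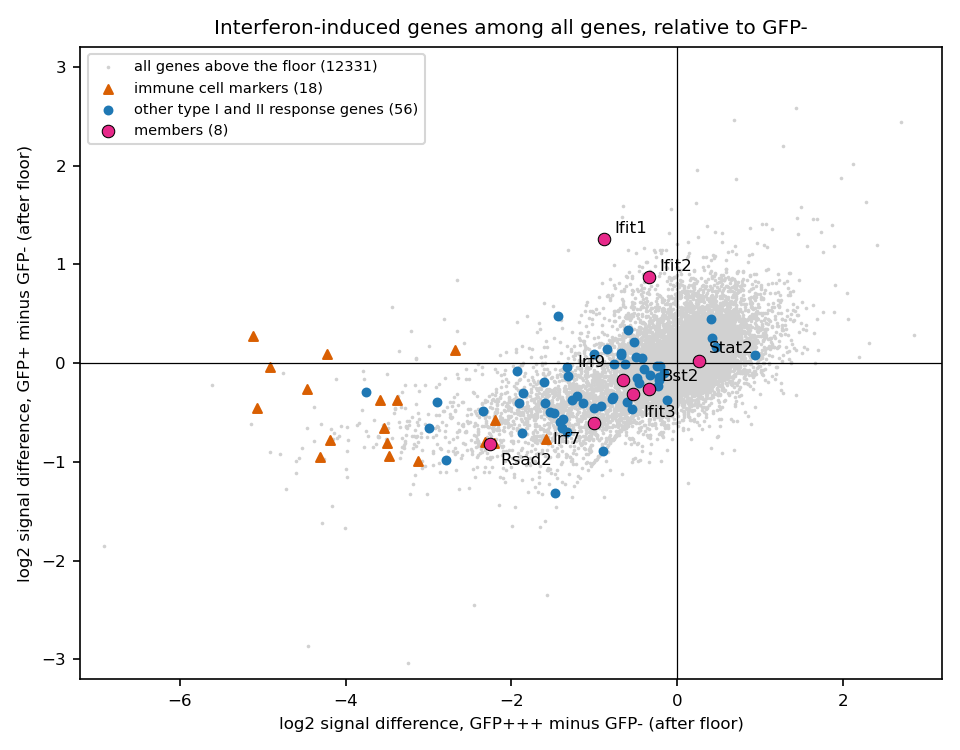
Each gene's log2 difference from GFP- in GFP+++ (x axis) and in GFP+ (y axis), after the floor, for 12331 genes (grey), 18 immune cell markers (orange), 56 other interferon response genes (blue) and the 8 members (pink). Ifit1 and Ifit2 stand above the line at 0 on the y axis at 1.25 and 0.87, whereas Rsad2 lies at -2.25 on the x axis and -0.82 on the y axis.

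Genes with a pattern close to that of Ifit1 were found by the distance between their log2 folds, relative to GFP+, over the 3 arrays, among 10458 genes above the floor on every array. The nearest were Saa3 (113, 501 and 179 in GFP+++, GFP+ and GFP-), an acute-phase protein, Mob3b (203, 1121 and 507), Slc1a2 (263, 1242 and 412), a glutamate transporter, Bmp6 (264, 879 and 397), a secreted growth factor, and Hfe (378, 1268 and 640), a regulator of iron uptake. None of these 5 was in the lists of interferon genes used here. Ifit2 ranked 66th of 10457 other genes, Irf9 2606th, Rsad2 2680th and Stat2 7436th, and the other members lay under the floor in GFP+++. With 3 arrays such a likeness describes only 2 differences. By size of the GFP+ peak Ifit1 ranked 8th and Ifit2 61st of 12331 genes. The largest peaks were those of the odorant receptors Olfr65 (3.41-fold), Olfr690 (3.28-fold) and Olfr544 (2.94-fold), with Slc1a2 (3.01-fold) and Saa3 (2.79-fold).

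Of a wider list of 65 type I response genes, 59 had a probe set of their own and 39 passed the floor on at least 1 array, and 0 of the 39 met the peak rule, a count close to the 1.87% of all genes. GFP+ was the highest array for 9 of 39 (23.1%, against 24.8% of all genes) and GFP- for 27. GFP+++ against GFP- placed 17 at least 2-fold lower (12.4% of all genes) and 0 higher (1.92%), with a median log2 fold of -0.67. Under median scaling the count of 17 went to 14 (1045 of all 12184 genes) and under quantile normalization to 14 (1306 of 12184). With the median over probe sets it was 11 (1052 of 12240), and with the 65th percentile floor 5 of 30 (746 of 9799). Without a floor it was 30 of 59 (4082 of 18193). Without probe sets ending in _x_at, _s_at or _a_at it was 13 of 29 (1255 of 10598). The list's distance from the median of all genes was -0.68, and -0.73 with each array scaled by its median. That scaling moves the median of all genes by up to 0.42. Genes with GFP+++ at least 2-fold below GFP- included, in no order since some folds are bounds, Ifi27, a small mitochondrial protein, 7.97-fold below GFP-, its relative Ifi27l2a (at least 6.88-fold), Ifitm3, which blocks virus entry at endosomes (5.08-fold), Lgals3bp (3.80-fold), Samd9l (at least 3.74-fold) and Rtp4 (3.65-fold). GFP+ against GFP- placed 1 lower (0.804% of all genes), Mndal (2.49-fold), and 0 higher (0.607%).

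Within the list, Ifitm3 gave 804, 2926 and 4084 in GFP+++, GFP+ and GFP-, while its bright relatives differed less: Ifitm2 gave 5618, 5934 and 8212, and Ifitm1 gave 3068, 5177 and 4888. Ddx58, which encodes the RNA sensor RIG-I, was highest in GFP+++ at 2232, against 1234 in GFP+ and 1165 in GFP-, a log2 fold of 0.94 over GFP-. Tdrd7, a Tudor domain protein, came nearest to the pattern of Ifit1, with 196, 733 and 528 in GFP+++, GFP+ and GFP-, but GFP+ was only 1.39-fold above GFP-. It met the peak rule in 1 alternative, with each array scaled by its median, at 1.53-fold.

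Genes known to be induced by type II interferon, many of them in antigen presentation, formed another list, which was not ranked by strength of induction. Of 32 listed, 26 had a probe set of their own and 17 passed the floor, and 16 of the 17 had GFP- above GFP+ above GFP+++, an order that 28.6% of all genes had. In 5 of the 16 the gap between GFP- and GFP+ was under the probe set SD of 0.24. The genes highest in GFP+ went from 1 of 17 (3055 of all 12331 genes) to 6 under median scaling (2008 of 12280). Under quantile normalization they were 3 (2902 of 12280). GFP+++ against GFP- placed 9 of 17 at least 2-fold lower (12.4% of all genes) and 0 higher (1.92%), with a median log2 fold of -1.13. GFP+ against GFP- placed 0 higher (0.607% of all genes) and 0 lower (0.804%), with a median of -0.39. H2-D1 and H2-K1, the classical class I molecules that show peptides to T cells, were 13.4-fold and 7.46-fold below GFP- in GFP+++, both on probe sets ending in _x_at, which may bind several transcripts. B2m, their light chain, gave 2030, 4181 and 5892 in GFP+++, GFP+ and GFP-, and Tapbp, which loads peptides, 1214, 1850 and 1868. Irgm1 (at least 2.66-fold), Psmb10 (2.51-fold), Igtp and Gbp7 were also lower in GFP+++. Under median scaling the count of 9 went to 6 (1045 of all 12184 genes) and under quantile normalization to 8 (1306 of 12184). With the median over probe sets it was 7 (1052 of 12240). Without probe sets ending in _x_at, _s_at or _a_at it was 4 of 10 (1255 of 10598), and with the 65th percentile floor 3 of 8 (746 of 9799). Without a floor it was 21 of 26 (4082 of 18193). The exception to the order was Ifi47, a GTPase, at 3.26, 199 and 158.

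The interferon genes were mostly too dim to measure. Of 20 interferon genes listed, 10 had a probe set of their own and 9 of these lay under the floor throughout. The one that passed, Ifnz, gave 168, 175 and 166, all but level. All 10 measured receptor, kinase and STAT genes passed the floor, and 0 of them were at least 2-fold apart between GFP+ and GFP-. Among all genes GFP+ was at least 2-fold higher in 0.607% and lower in 0.804%. Ifnar1 gave 537, 642 and 522 in GFP+++, GFP+ and GFP-, Ifnar2 gave 1075, 1127 and 1036, Jak1 gave 1614, 1703 and 1555, and Tyk2 gave 380, 341 and 357. Both type I receptor chains and Jak1 were thus within 1.5-fold across the fractions. Ifngr1, the ligand-binding chain of the type II receptor, was lower in GFP+++ (137, against 313 and 383), and so was Il10rb (501, against 1248 and 1090), a shared chain of the receptors for interleukin 10 and lambda interferons. For GFP+++ against GFP- the list had a median of -0.05, but 0.37 under median scaling and 0.02 under quantile normalization. Set against the median of all genes these become -0.06, -0.05 and -0.04.

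Of 20 sensors and adaptors 13 passed the floor, of which Ddx58, Ifih1 and Trim25 also stand in the type I list. GFP+++ against GFP- placed 2 of the 13 at least 2-fold lower, or 15.4%, which is near the 12.4% of all genes. They were Ifih1 (140, 372 and 424 in GFP+++, GFP+ and GFP-), which encodes the RNA sensor MDA5, and Myd88 (211, 477 and 519), the adaptor of Toll-like receptors. The kinase Tbk1 (1787, 1911 and 1939), the factor Irf3 (955, 1170 and 1042) and the adaptor Mavs (587, 581 and 513) were nearly level. The list median of -0.17 turned to 0.23 with median scaling and was -0.18 and -0.19 relative to all genes. Of 13 inhibitors 12 passed the floor. Tnfaip3, a ubiquitin-editing brake on inflammatory signalling, gave 115, 443 and 452 in GFP+++, GFP+ and GFP-, and Socs3, which blocks Jak kinases, 517, 1059 and 1056. Nlrx1, a mitochondrial protein, was highest in GFP+++ (638, against 304 and 350), and Usp18, which blocks the type I receptor, gave 134, 230 and 214. The inhibitor median of -0.35 turned to 0.07 with median scaling and was -0.35 relative to all genes under both scalings.

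**Figure D4:**
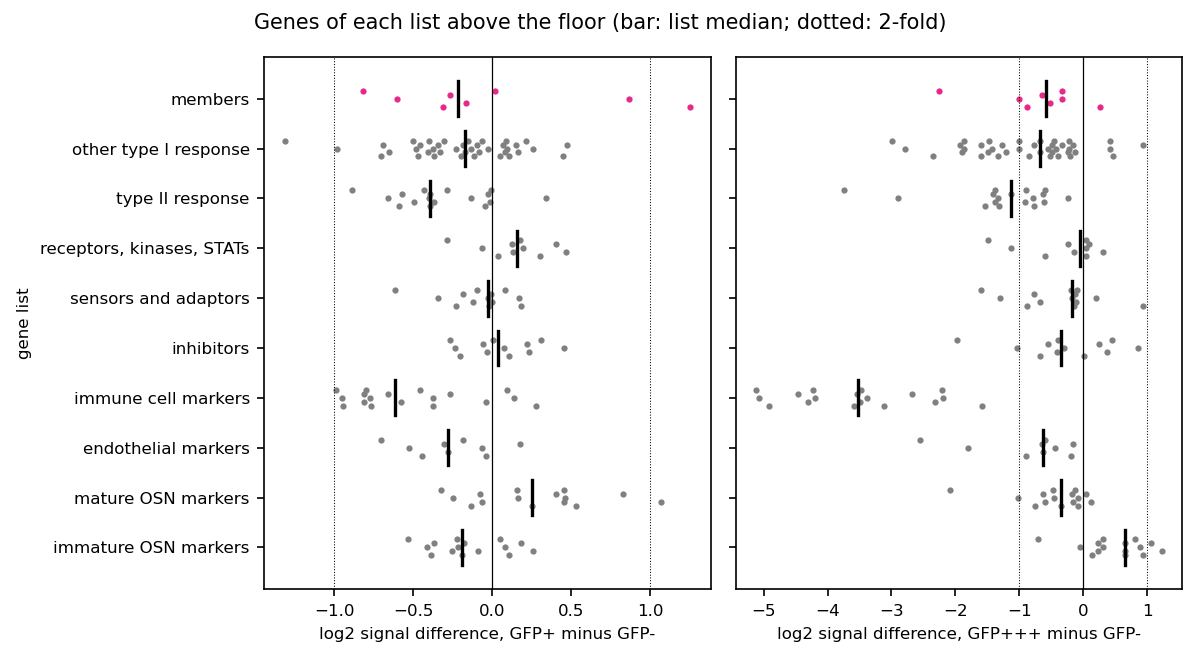
Log2 difference of GFP+ from GFP- (left) and of GFP+++ from GFP- (right) for the genes of each list above the floor on at least 1 of the 2 arrays, after the floor. Each point is a gene, the bar is the list's median and dotted lines mark 2-fold. The members' medians are -0.22 and -0.59, those of the immune markers -0.62 and -3.52, and Ifit1 and Ifit2 are the 2 members at the right of the left panel. In the right panel 3 of the 8 member folds and 13 of the 18 immune marker folds are bounds set by the floor.

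The fractions also differed in other cell types, and the part of these in the signals above was not tested. All 18 immune cell markers above the floor, of 23 with a probe set, were at least 2-fold below their GFP- signal in GFP+++, as were 12.4% of all genes. In GFP+++ 18 of the 23 lay under the floor. Their summed signal was 1234, 26172 and 32316 in GFP+++, GFP+ and GFP-. Csf1r, the macrophage growth factor receptor, gave 151, 3685 and 5051, and the pan-leukocyte gene Ptprc 24.9, 968 and 1256. The T cell genes Cd3e and Cd3g, the B cell gene Cd79a, the plasmacytoid dendritic cell gene Siglech and the myeloid gene Itgam lay under the floor on all 3 arrays. None of the 18 met the peak rule (1.87% of all genes), and their median log2 fold for GFP+ against GFP- was -0.62. The 3 that were highest in GFP+ were S100a9, Ctss and Cd14, by at most 0.27 on the log2 scale. The summed signal of 10 endothelial markers was 824, 1880 and 2428. Among 15 mature neuron markers 10 were highest in GFP+ (24.8% of all genes), with a median log2 fold of 0.25 over GFP-. The peak rule was met by 2 of them, Faim2 and Cnga4 (1.87% of all genes). Omp, the marker of mature olfactory neurons, gave 5041, 10615 and 7748. Gap43, of immature neurons, gave 11233, 6006 and 6395, and Neurog1 gave 1492, 1363 and 1202. Respiratory ciliated cell markers had a median of 0.20 over GFP-, with Foxj1, their master factor, at 367, 617 and 390. Sustentacular, horizontal basal, fibroblast and glia markers were highest in GFP- in 14 of 14, 8 of 8, 10 of 10 and 7 of 7 genes, against 36.1% of all genes.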

How the data were processed

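RNA of 3 sorted cell fractions was hybridised to 1 Affymetrix mouse array each. Per the submitters' processing notes the authors used MAS5, which gives a linear signal intensity per probe set. The software's version and parameters are not given in the sources, and detection calls were not used here. The 2% trimmed mean was 500.0 on every array. The platform annotation names 1 gene for 34958 of 45101 probe sets, several for 932 and none for 9211, and 34754 were found in RefSeq (GRCm38.p6) by Entrez identifier.

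The 2% trimmed means were made equal, signals raised to the pooled median of 104, and log2 folds taken with Python 3.11.15, NumPy 2.4.6, pandas 2.3.3 and SciPy 1.17.1. The steps were tested on simulated arrays. MAS5 does not correct for the shape of an array's distribution, and array medians were 88.2, 107 and 118 for GFP+++, GFP+ and GFP-.

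The members and gene lists were chosen with earlier results of these data known. Named genes are the members, 3 sort markers, and in each other list those past 2-fold or the peak rule and the 4 brightest, of which the text gives a selection. The genes next to a member and single exceptions (Lipa, Slc16a12, Cmpk2, Tdrd7, Ifi47, Usp18, Foxj1, Daxx, Ifnar1, Tyk2, Mavs, Ptprc, the other Ifit relatives, the immune markers under the floor and the 3 highest in GFP+) were named after their values were seen. Alternatives were scaling by the median, quantile normalization, a floor at the 65th percentile, no floor, the median over probe sets, and leaving out probe sets ending in _x_at, _s_at or _a_at.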

Additional observations from a re-analysis of the deposited data

How the results depend on the processing

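The 2 members that met the peak rule, Ifit1 and Ifit2, met it under all 6 alternatives. Only median scaling and quantile normalization could change their peaks. Each has 1 probe set, without such a suffix, and its GFP+ and GFP- signals lie above even the 65th percentile floor. With each array scaled by its median the count of members with GFP+ at least 2-fold above GFP- went from 1 to 2, with Ifit2 at 1.01 on the log2 scale. Of all genes 74 of 12196 were higher before and 131 of 11990 after. The log2 fold of Ifit2 for GFP+++ against GFP- turned from -0.33 to 0.08. The count with GFP+++ at least 2-fold below GFP- went from 2 to 1 with median scaling, quantile normalization, the 65th percentile floor and without the suffixed probe sets, the last because Irf7 then has no probe set. In the same order, 1045 of 12184, 1306 of 12184, 746 of 9799 and 1255 of 10598 of all genes were lower. With the 65th percentile floor of 276, 4 members had a value, and their median for GFP+ against GFP- reversed from -0.22 to 0.35 and that for GFP+++ against GFP+ moved to -1.05. Without a floor the medians for GFP+++ against GFP- and against GFP+ moved to -0.93 and -1.10. The members at least 2-fold lower in GFP+++ then went from 2 to 3 and from 3 to 4, where 4082 and 3295 of all 18193 genes were lower. The log2 fold of Rsad2 for GFP+++ against GFP- went from -2.25 to -1.24 with the median over its probe sets, of which the dimmer ones are bounds. Counting the shared probe set as Isg15, an alternative added after seeing the data, left the count of peaks at 2. No paired analysis was possible because each group has 1 array and the labels give no replicate numbers. Signals of Ifit3, Bst2, Irf7 and Stat2 lie near the floor, which limits their folds.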

Other observations

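Rsad2 and Cmpk2, a mitochondrial nucleotide kinase gene, are neighbours on chromosome 12 and are both known as interferon-induced genes. Their signals ran in opposite orders: Cmpk2 gave 1267, 1128 and 945 in GFP+++, GFP+ and GFP-, against 198, 534 and 942 for Rsad2. Cmpk2 was chosen after its values were seen, and its gaps (a log2 fold of 0.42 for GFP+++ over GFP-) are small beside that of Rsad2 (-2.25). Other genes of the type I list highest in GFP+++ were Daxx, a chromatin-associated protein (968, 781 and 698 in GFP+++, GFP+ and GFP-), and Ddx58.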
